A study of Mus musculus with 18 samples.

Results

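The 9 genes described here encode the pre-B cell receptor with its adaptor, the recombinase that assembles antibody genes, and the receptor for IL-7: *Cd79a*, *Cd79b*, *Vpreb1*, *Vpreb3*, *Igll1*, *Blnk*, *Rag1*, *Rag2* and *Il7r*. They were named as a list, with earlier results of these data known, out of 22380 protein-coding genes of GENCODE vM1 on mouse build mm9. Each gene was examined over its annotated span with 20 kb added on either side. Since *Vpreb1* and *Igll1* lie next to each other on chromosome 16, and *Rag1* and *Rag2* on chromosome 2, the 9 genes gave 7 separate windows with 419 kb in all.

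The data were 18 ChIP-seq libraries from C10 cells, a mouse pre-B cell line derived from HAFTL cells that carries C/EBPα fused to the estrogen receptor (C/EBPαER) with a GFP tag. β-estradiol moves the fusion into the nucleus and the cells turn into macrophage-like cells. C/EBPα was profiled at 0 hr post-induction (hpi), at 10, 30 and 60 min, and at 3, 12, 24 and 48 hpi, whereas C/EBPβ and PU.1 were profiled at 0, 3, 12, 24 and 48 hpi. Per the labels, induced cells received 100 nM β-estradiol with 10 nM IL-3 and CSF-1 and control cells 0.1% ethanol as solvent, while the study's methods give a higher β-estradiol concentration. All cells carried the transgene, including those at 0 hpi, and the C/EBPα antibody does not tell the fusion from the endogenous protein. Each factor and time point had 1 library, so no difference below could be tested against replicates, and every interval covers counting error only.

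During B cell development, a pre-B cell first makes an immunoglobulin heavy chain and displays it together with a surrogate light chain, built from VpreB and λ5, as the pre-B cell receptor. The receptor signals through the CD79A and CD79B chains to the adaptor BLNK, and with IL-7 it drives a burst of division before RAG1 and RAG2 rearrange the light chain genes. PU.1 is active in both B cells and macrophages, while C/EBPα and C/EBPβ are regulators of the myeloid lineage that ordinary pre-B cells have little of.

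The C/EBPα libraries held 5970869 to 24917810 reads after filtering, those of C/EBPβ 2903580 to 5844202, and those of PU.1 6575348 to 11349746. The C/EBPα libraries of 10, 30 and 60 min came from another sequencer (HiSeq2000, 50-base reads) than the other libraries, so for those time points the time and the sequencer cannot be told apart. A 200-bp bin was called bound in a library when its count had a Poisson p of at most 1e-07 over the mean of the genome and stood out from the 10 kb around it, by 4 times the mean there and a Poisson p of no more than 0.0001, which took 7 to 15 reads at the least. Bound bins of any library that touched, or lay 1 bin apart, formed a site. Sites are named by the distance of their highest bin from the transcription start site (TSS) of the nearest member, with plus for downstream. Unless stated otherwise, values are reads in the 600 bp around that bin per 10000000 reads of the library, given in the order of the 8 times for C/EBPα and of the 5 times for C/EBPβ and PU.1. ChIP reads carry no RNA level, so neither the cell type nor the expression of the 9 genes could be read from these libraries.

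Sequences under some of the sites on which the results below turn are printed here, each read from mm9 (NCBIM37) in the direction of the named gene. The Il7r +37.5 kb, Igll1 -0.2 kb and Igll1 -1.4 kb sites and the C/EBPα centres near *Rag2* and *Blnk* are examples. C/EBPα was higher there at times between 0 and 48 hpi than at both ends. Other sites had this course too and are not printed, among them Igll1 +6.8 kb. The PU.1 centres are shown because their reads were among the highest at 0 hpi and were at 48 hpi either much lower (*Blnk* -1.3 kb, *Cd79a*) or near that value (*Blnk* -4.3 kb, *Rag1*). Capitals mark matches on either strand to TTGCNNAA (C/EBP), GAGGAAGT (PU.1) or its core GAGGAA, which every GAGGAAGT contains, CAGGTG (E-box) and TGTGGTT (RUNX).
Il7r +37.5 kb, C/EBPα centre (chr15:9421909-9422128, minus strand): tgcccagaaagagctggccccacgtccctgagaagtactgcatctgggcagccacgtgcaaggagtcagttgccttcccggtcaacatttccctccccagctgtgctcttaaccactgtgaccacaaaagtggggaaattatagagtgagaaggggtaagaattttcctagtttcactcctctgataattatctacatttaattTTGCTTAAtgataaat
Igll1 -0.2 kb, C/EBPα centre (chr16:16864119-16864268, minus strand): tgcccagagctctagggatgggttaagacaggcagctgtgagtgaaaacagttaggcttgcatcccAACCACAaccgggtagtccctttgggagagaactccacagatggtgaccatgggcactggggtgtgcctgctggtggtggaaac
Igll1 -1.4 kb, C/EBPα centre (chr16:16865478-16865627, minus strand): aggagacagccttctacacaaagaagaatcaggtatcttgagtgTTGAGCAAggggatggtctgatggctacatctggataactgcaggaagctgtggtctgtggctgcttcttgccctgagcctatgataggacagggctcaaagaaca
Rag2 -4.4 kb, C/EBPα centre (chr2:101459723-101459872, plus strand): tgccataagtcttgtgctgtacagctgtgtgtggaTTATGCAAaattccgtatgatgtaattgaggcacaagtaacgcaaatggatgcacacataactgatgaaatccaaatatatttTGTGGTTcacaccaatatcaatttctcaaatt
Blnk -1.3 kb, C/EBPα centre (chr19:41070783-41070932, minus strand): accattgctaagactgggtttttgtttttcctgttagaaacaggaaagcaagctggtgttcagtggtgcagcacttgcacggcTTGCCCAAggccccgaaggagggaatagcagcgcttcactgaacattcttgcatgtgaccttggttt
Blnk -1.3 kb, PU.1 centre (chr19:41070251-41070400, minus strand): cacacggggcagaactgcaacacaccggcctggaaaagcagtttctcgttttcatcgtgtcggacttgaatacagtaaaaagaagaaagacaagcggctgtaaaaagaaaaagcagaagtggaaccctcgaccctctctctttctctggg
Blnk -4.3 kb, PU.1 centre (chr19:41073120-41073269, minus strand): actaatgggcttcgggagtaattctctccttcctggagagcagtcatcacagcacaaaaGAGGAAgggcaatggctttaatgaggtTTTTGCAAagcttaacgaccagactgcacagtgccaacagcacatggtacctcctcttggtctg
Cd79a +0.1 kb, PU.1 centre (chr7:25682299-25682399, plus strand): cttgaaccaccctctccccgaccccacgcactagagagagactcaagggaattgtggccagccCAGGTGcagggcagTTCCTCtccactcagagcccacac
Rag1 -1.4 kb, PU.1 centre (chr2:101491063-101491212, minus strand): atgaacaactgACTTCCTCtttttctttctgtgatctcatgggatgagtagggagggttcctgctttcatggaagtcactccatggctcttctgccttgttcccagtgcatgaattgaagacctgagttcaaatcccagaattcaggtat
The *Cd79a* sequence ends at the base before the annotated TSS. C/EBP letters stood at the Igll1 -1.4 kb, Rag2 -4.4 kb and Blnk -1.3 kb C/EBPα centres, at the far end of the Il7r stretch, and at the Blnk -4.3 kb PU.1 centre. The Igll1 -0.2 kb stretch held RUNX letters and no C/EBP letters. The printed 150 bp at the PU.1 centre of Blnk -1.3 kb held none of the letters searched. The 300 bp around that summit held 1 GAGGAA, 122 bp from it, and 1 CAGGTG, 98 bp from it.

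The 7 windows held 55 sites, of which 28 were bound by C/EBPα, 16 by C/EBPβ and 43 by PU.1 in at least 1 library. Of the 55 sites, 24 were intergenic, 17 lay in introns and 14 in exons or UTRs, and 6 had their highest bin within 500 bp of a member's TSS. C/EBPα bound 3 sites at 0 hpi, then 13 at 10 min, 17 at 30 min, 22 at 60 min and 22 at 3 hpi, followed by 12 at 12 hpi, 5 at 24 hpi and 4 at 48 hpi. C/EBPβ bound 0, 7, 1, 2 and 10 sites at 0, 3, 12, 24 and 48 hpi, in libraries that were the shallowest of the series. PU.1 bound 24 sites at 0 hpi, 29 at 3 hpi, 33 at 12 hpi, 21 at 24 hpi and 28 at 48 hpi. C/EBPα thus bound the most sites at 60 min and 3 hpi, as it did over the whole genome, where it bound 1858 sites at 0 hpi, 18649 at 60 min, 17554 at 3 hpi and 6573 at 48 hpi. Over the genome PU.1 bound 25201 sites at 0 hpi, 46880 at 12 hpi and 33777 at 48 hpi. C/EBPβ bound 714, 4773, 2578, 5439 and 12052 sites of the genome at its 5 times, so that its genome count at 24 hpi was above that at 3 hpi, whereas the 9 genes had 2 sites at 24 hpi and 7 at 3 hpi.

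**Figure D1:**
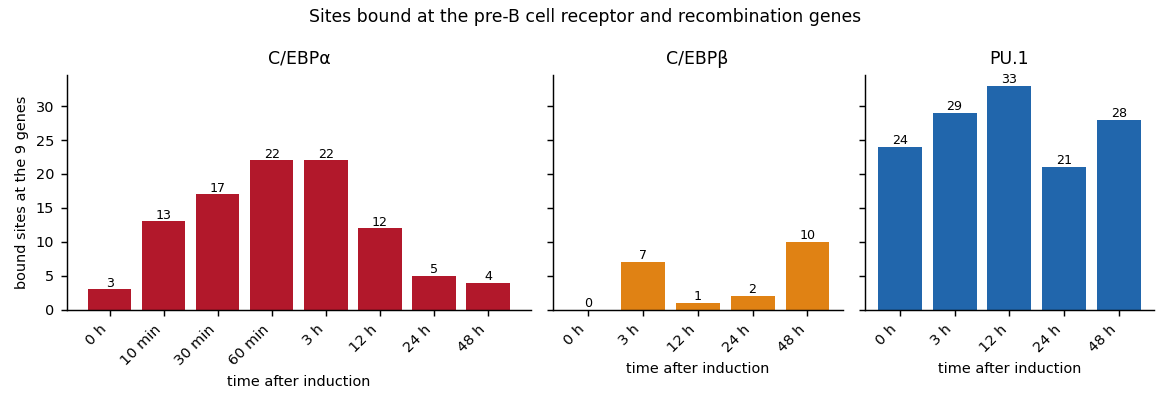
Bars give the number of sites bound in each library at the 9 genes (vertical axis, of 55 sites) by time after induction (horizontal axis), in a panel for each factor with 1 library per bar. C/EBPα bound 3 sites at 0 hpi, 22 at 60 min and 3 hpi and 4 at 48 hpi, while PU.1 stayed between 21 and 33.

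Most C/EBPα sites at these genes were bound in passing, that is, at times between 0 and 48 hpi only. This held for 22 of the 28 sites, beside 74.6% of all 29118 C/EBPα sites of the genome, so the members' share of 78.6% was close to the background. C/EBPα reads were highest at 10, 30 or 60 min or at 3 hpi at 20 of the 28 sites, beside 68.4% of all sites. The highest value fell at 3 hpi for 12 sites, at 30 min for 6, at 12 hpi for 6, at 60 min for 2, and at 0 and 24 hpi for 1 site each, and at 48 hpi for none. Counted around the summit of C/EBPα itself, it fell at 3 hpi for 13 sites, at 30 min for 7, at 12 hpi for 7 and at 60 min for 1. Rag2 -4.4 kb, Cd79b -4.4 kb and Blnk -1.3 kb, where the time changed from 0 hpi to 3 hpi, from 24 to 12 hpi and from 60 to 30 min, had their highest bin more than 500 bp from that summit. A single site was bound at both 0 and 48 hpi (Igll1 -1.4 kb). Among the 6 sites bound at 0 or 48 hpi, 3 were gained, meaning bound at 48 hpi alone of these times with at least 2 times the reads, beside 66.8% of such sites in the genome. Loss, meaning bound at 0 and not at 48 hpi with at most 0.5 times the reads, was called at 1 of the 6 (Igll1 -0.2 kb), beside 4.72% of such sites, and at 0 with a Poisson threshold of 1e-09 or with the libraries thinned to the smallest. Taken gene by gene, all 9 genes had a C/EBPα site in their window at some time, as did 55.5% of all genes, and 4 of 9 had a site at 48 hpi (*Blnk*, *Cd79a* and, through the same sites of their shared window, *Vpreb1* and *Igll1*), beside 25.6%.

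PU.1 was bound before induction at 24 of the 43 sites it ever bound at the 9 genes (55.8%), beside 42.6% of all PU.1 sites. Each of the 9 genes had a PU.1 site in its window at 0 hpi, as did 57.8% of all genes. Of the 31 sites bound at 0 or 48 hpi, 21 were bound at both (67.7%), beside 44.0% of such sites in the genome. PU.1 loss was called at 2 of the 31 (Igll1 -0.2 kb and Blnk -10.7 kb), beside 12.2% of such sites in the genome, and gain at 1 (Il7r +21.9 kb), beside 26.3%. With the bins moved by 100 bp, 1 site was lost and 0 were gained, and with reads counted around the summit of PU.1 itself, 3 were lost and 1 was gained. A further 12 of 43 sites were bound only between these times, beside 30.8%. The 24 sites bound at 0 hpi had a median log2 change in PU.1 reads of 0.12 at 3 hpi, 0.02 at 12 hpi, -0.48 at 24 hpi and -0.31 at 48 hpi, with 0.5 reads added to each count. Over all 25201 sites bound at 0 hpi the same medians were 0.04, 0.10, -0.38 and -0.40, close to those of the members at 24 and 48 hpi. By 48 hpi PU.1 reads were at most 0.5 times those at 0 hpi at 6 of the 24 sites, beside 28.4% of all sites, and at least 2 times at 0 of the 24, beside 7.16%. The 95% interval of the 48 hpi over 0 hpi ratio lay below 1 at 8 sites (33.3%, beside 34.4% of all sites bound at 0 hpi), above 1 at 2 (8.33%, beside 12.4%) and spanned 1 at 14.

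**Figure D2:**
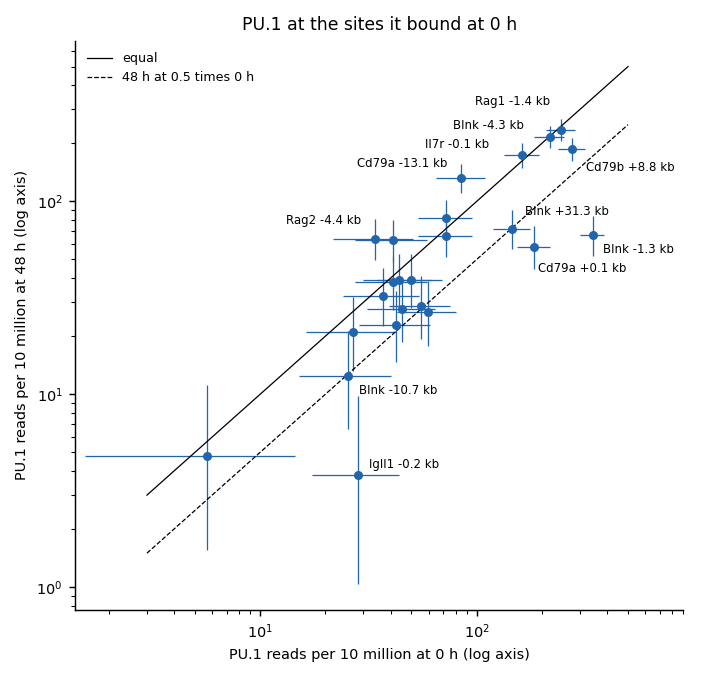
Each point is 1 of the 24 sites bound by PU.1 at 0 hpi, with PU.1 reads per 10000000 at 0 hpi (horizontal, log axis) and at 48 hpi (vertical, log axis), and bars give exact 95% Poisson intervals. Blnk -1.3 kb, Cd79a +0.1 kb and Igll1 -0.2 kb lie below the dashed line of 0.5 times, whereas Rag1 -1.4 kb and Blnk -4.3 kb lie near the line of equality.

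PU.1 was bound at 0 hpi at 11 of the 28 C/EBPα sites, a share of 39.3%, beside 24.5% of all C/EBPα sites. Both factors were bound at some time at 17 sites, and at 8 of these their summits lay within 200 bp of each other (47.1%), beside 76.1% of such sites in the genome. Another 11 of the 28 C/EBPα sites had no PU.1 call at any time (39.3%, beside 54.3% of all C/EBPα sites), and 26 of the 43 PU.1 sites had no C/EBPα call (60.5%, beside 77.5%). Values below are those around the highest bin of all libraries, also where the summits lay apart, unless they are given as those of a factor's own summit.

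CD79A and CD79B are the chains that carry the signal of the pre-B cell receptor and the B cell receptor into the cell. At the *Cd79a* promoter (Cd79a +0.1 kb, chr7:25682201-25682600, across the TSS and in the 5′ UTR), PU.1 reads were 184, 204, 231, 92.5 and 58.3 at 0, 3, 12, 24 and 48 hpi. This was the site with the most PU.1 reads at 0 hpi in the window, and its intervals at 24 and 48 hpi lay below those of the earlier times. The value at 48 hpi was 0.316 times (95% interval 0.229 to 0.432) that at 0 hpi, while at 12 hpi it was 1.25 times (95% interval 1.01 to 1.56). Among all promoters *Cd79a* stood at percentile 99.7 in PU.1 at 0, 3 and 12 hpi, 98.6 at 24 hpi and 97.0 at 48 hpi. C/EBPα reads at the same site were 18.04, 11.2, 11.5, 15.4, 26.1, 58.6, 26.4 and 17.6 from 0 hpi over 10, 30 and 60 min and 3, 12 and 24 hpi to 48 hpi. C/EBPα was bound there at 3 and 12 hpi alone, and its reads reached 3.25 times (95% interval 1.75 to 6.29) the 0 hpi value at 12 hpi. Within 500 bp of the TSS, *Cd79a* stood at percentile 97.0 of all genes in C/EBPα at 0 hpi and 98.9 at 12 hpi. Whether the locus or the 12 hpi C/EBPα library as a whole was higher was not tested.

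Upstream of *Cd79a*, the site at -13.1 kb was higher in PU.1 at every later time, with 85.1, 154, 256, 131 and 132 PU.1 reads, 1.55 times (95% interval 1.14 to 2.14) the 0 hpi value at 48 hpi and 3.01 times (95% interval 2.27 to 4.04) at 12 hpi. Its highest bin lies 90 bp from the TSS of *Rps19*, which encodes a ribosomal protein. PU.1 also bound the most sites of the genome at 12 hpi. Whether this locus or the 12 hpi PU.1 library as a whole was higher was not tested. Cd79a +4.7 kb, in the 3′ UTR, had 6.77, 4.82, 16.9, 31.2, 50.3, 31.8, 15.8 and 13.8 C/EBPα reads and was bound at 60 min and 3 hpi alone, with 7.44 times (95% interval 3.21 to 21.1) the reads of 0 hpi at 3 hpi. The gained C/EBPα site of this window, Cd79a +6.9 kb, lies in an exon of the neighbour *Arhgef1* and had 10.1, 15.3, 19.99, 19.96, 37.7, 40.2, 22.4 and 21.4 C/EBPα reads. It was bound in all libraries after 0 hpi, but the interval of its 48 hpi value over 0 hpi reached below 1, at 2.11 times (95% interval 0.888 to 5.36). C/EBPβ was gained at the same site, with 11.7, 24.0, 24.1, 32.0 and 43.3 reads at 0, 3, 12, 24 and 48 hpi.

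At *Cd79b*, the highest PU.1 values lay 8.8 kb downstream of the TSS (chr11:106167001-106167600, intergenic, beyond the 3′ end of the gene and 4121 bp from the TSS of *Gh*). PU.1 reads there were 275, 284, 159.6, 156 and 186 over the 5 times and 0.677 times (95% interval 0.552 to 0.831) those of 0 hpi at 48 hpi, with lower values at 12, 24 and 48 hpi than at 0 and 3 hpi. The same site had 11.3, 14.8, 32.3, 26.1, 26.1, 11.7, 15.8 and 13.8 C/EBPα reads, bound from 10 min to 3 hpi and not later. C/EBPβ, in contrast, was bound there at 48 hpi, with 18.7, 8.56, 13.8, 22.4 and 47.3 reads and 2.53 times (95% interval 1.10 to 6.52) the 0 hpi value at 48 hpi. Near the start of the gene (Cd79b +0.2 kb, coding exon), PU.1 reads were 55.3, 59.3, 91.5, 49.3 and 28.7, highest at 12 hpi and 0.518 times (95% interval 0.311 to 0.856) the 0 hpi value at 48 hpi. Within 500 bp of the TSS, *Cd79b* stood at percentile 97.4, 96.3, 96.1, 94.8 and 90.9 of all genes in PU.1, highest at 0 hpi. C/EBPα was bound at Cd79b +0.2 kb at 12 hpi alone, with 7.89, 5.22, 6.15, 6.65, 20.7, 35.2, 14.5 and 16.3 reads. Cd79b +11 kb had no PU.1 call and 6.77, 15.3, 23.1, 41.5, 59.3, 6.70, 2.64 and 6.28 C/EBPα reads, 8.77 times (95% interval 3.82 to 24.7) the 0 hpi value at 3 hpi. From 12 hpi on its intervals overlapped that of 0 hpi.

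VpreB and λ5, the latter encoded by *Igll1*, form the surrogate light chain, and the VpreB3 protein binds immunoglobulin chains inside the cell. The shared *Vpreb1* and *Igll1* window held the sites where C/EBPα was among the highest at the 9 genes. Igll1 +6.8 kb (chr16:16856801-16857600, intergenic, beyond the 3′ end of *Igll1*) had 10.1, 9.63, 38.5, 63.0, 157, 73.7, 17.1 and 5.03 C/EBPα reads. The value at 3 hpi was 15.5 times (95% interval 7.98 to 34.5) that at 0 hpi and 31.3 times (95% interval 12.0 to 116) that at 48 hpi. C/EBPβ had 2.33, 51.3, 34.4, 12.8 and 17.7 reads there and was bound at 3 hpi alone. PU.1 had its own summit 279 bp away, with 65.2, 85.2, 106, 74.9 and 56.4 reads, bound at all 5 times and highest at 12 hpi.

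Just upstream of *Igll1*, the site at -0.2 kb lost both factors. PU.1 reads were 28.4, 24.3, 15.9, 7.93 and 3.82, 0.135 times (95% interval 0.0335 to 0.402) those of 0 hpi at 48 hpi, the lowest ratio of the 24 sites bound at 0 hpi. C/EBPα reads were 19.2, 37.3, 86.1, 78.8, 91.6, 58.6, 9.23 and 5.03, bound from 0 to 12 hpi and 0.262 times (95% interval 0.0642 to 0.804) the 0 hpi value at 48 hpi. Before that the 3 hpi value of C/EBPα was 4.78 times (95% interval 2.84 to 8.53) that of 0 hpi, while PU.1 was at no later time above its 0 hpi value. C/EBPβ was bound at 3 hpi alone, with 30.4, 42.8, 3.44, 9.60 and 11.8 reads.

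The site at Igll1 -1.4 kb was the only member site that C/EBPα kept. Its C/EBPα reads were 28.2, 63.0, 141, 123, 126, 112, 77.8 and 31.4, with every library bound and with the 0 and 48 hpi values below those of all other times. The 48 hpi value was 1.11 times (95% interval 0.614 to 2.02) that of 0 hpi. C/EBPβ was bound here at 3, 12, 24 and 48 hpi, in 18.7, 51.3, 44.8, 60.8 and 33.5 reads, the single site that it bound at both 3 and 48 hpi. PU.1 was not called in any library, with 24.1, 15.2, 14, 11.5 and 8.599 reads.

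The TSS of *Vpreb1* (chr16:16870801-16871200, which also overlaps a UTR of *Top3b*) was a late C/EBPα site, with 16.9, 8.43, 6.92, 12.3, 13.5, 51.9, 44.8 and 41.5 reads. Its values of 12, 24 and 48 hpi were the highest, and the 48 hpi value was 2.45 times (95% interval 1.30 to 4.86) that of 0 hpi. PU.1 reads here were 28.4, 21.3, 68.1, 44.9 and 21.0 and at 12 hpi 2.40 times (95% interval 1.45 to 4.16) those of 0 hpi. Within 500 bp of the TSS, however, *Vpreb1* stood at percentile 93.6 of all genes in PU.1 at 0 hpi and 94.6 at 12 hpi. Whether the locus or the 12 hpi library as a whole was higher was not tested. At *Vpreb3*, the site with the most PU.1 reads at 0 hpi, Vpreb3 +5.3 kb, had 59.6, 65.4, 61.6, 43.2 and 26.8, 0.449 times (95% interval 0.268 to 0.742) those of 0 hpi at 48 hpi. C/EBPα was highest at Vpreb3 +1.3 kb, in an intron, where reads were 7.89, 3.61, 9.23, 9.21, 55.7, 25.1, 25.0 and 17.6 and the 3 hpi value was 7.06 times (95% interval 3.23 to 18.3) that of 0 hpi. C/EBPβ was gained at this intron site, with 4.67, 15.4, 10.3, 16.0 and 27.6 reads. Vpreb3 -4.7 kb, in a UTR of *Gm867* and 422 bp from the TSS of *Mmp11*, had 20.3, 16.5, 29.2, 44.0, 47.6, 31.8, 7.91 and 7.54 C/EBPα reads, bound from 10 min to 3 hpi. PU.1 was bound there at 0 hpi and not at 48 hpi, with its own summit 294 bp from that of C/EBPα. Around it PU.1 reads were 18.4, 16.7, 14, 12.3 and 6.69, 0.363 times (95% interval 0.123 to 0.978) the 0 hpi value at 48 hpi, whereas around the highest bin of all libraries the ratio was 0.842 times (95% interval 0.181 to 4.24) and no loss was called.

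**Figure D3:**
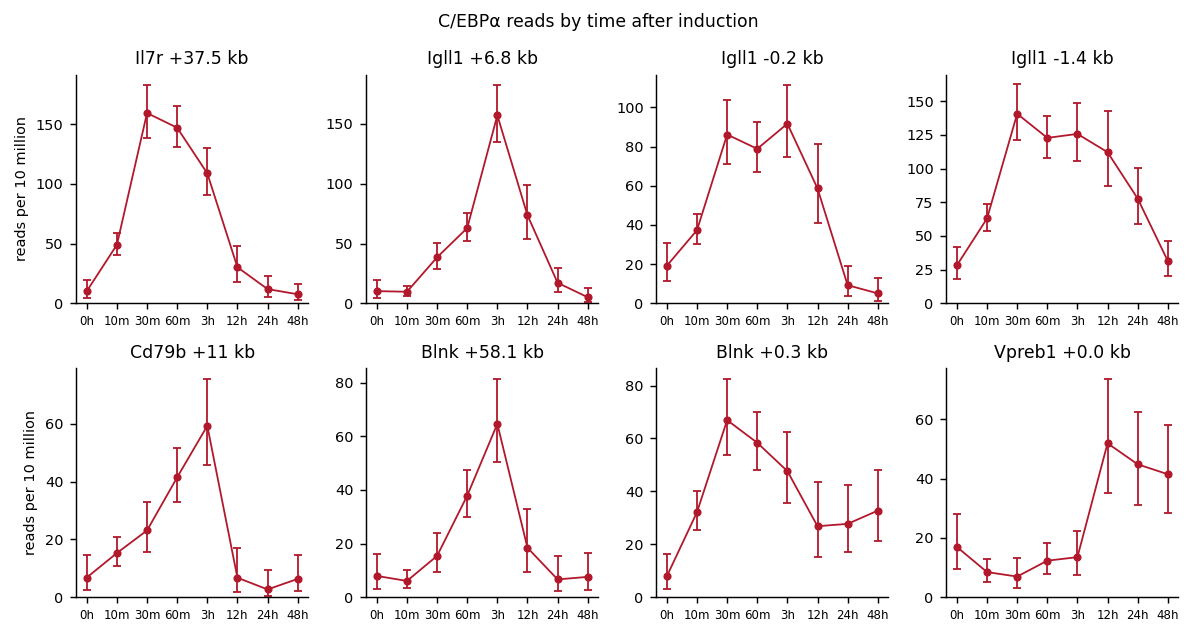
C/EBPα reads per 10000000 (vertical axes, each from 0 and scaled to its own panel) at 8 sites by time after induction (horizontal axis, evenly spaced time points, m for min), with exact 95% Poisson intervals. In 6 panels the highest value came at 30 min or 3 hpi and the 48 hpi interval overlapped or lay below that of 0 hpi, Blnk +0.3 kb at 48 hpi stayed above 0 hpi, and the Vpreb1 TSS was highest from 12 hpi on.

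BLNK is the adaptor that links the receptor to its downstream enzymes, and its gene is the longest of the 9. The highest PU.1 value at any of the 9 genes at 0 hpi lay 1.3 kb upstream of it (chr19:41070001-41071000, intergenic). PU.1 reads at Blnk -1.3 kb were 343, 271, 124, 85.5 and 66.9, lower at each later time, with intervals at 12, 24 and 48 hpi below those of 0 and 3 hpi. At 12 hpi they were 0.362 times (95% interval 0.291 to 0.449) and at 48 hpi 0.195 times (95% interval 0.147 to 0.255) those of 0 hpi, the lowest ratio but for Igll1 -0.2 kb. The C/EBPα summit of the site lay 532 bp further upstream, where reads were 12.4, 30.9, 72.3, 63.0, 34.1, 11.7, 17.1 and 7.54, 5.83 times (95% interval 3.11 to 12.1) the 0 hpi value at 30 min. The printed sequences show the 2 summits separately.

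A second upstream site at Blnk -4.3 kb had 217, 198, 176, 192 and 217 PU.1 reads, 1 times (95% interval 0.811 to 1.24) those of 0 hpi at 48 hpi, and was not called for C/EBPα in any library. Blnk +31.3 kb, in an intron, had 146, 179, 156, 81.1 and 71.7, 0.491 times (95% interval 0.359 to 0.667) at 48 hpi. The intervals of the ratios at -1.3 and -4.3 kb did not overlap, nor did those at -1.3 and +31.3 kb. The lost site, Blnk -10.7 kb, had 25.5, 24.3, 23.3, 11.5 and 12.4 reads, and its ratio was 0.487 times (95% interval 0.219 to 1.05), an interval that reached above 1. Blnk +12.5 kb had 41.1, 73.0, 52.3, 62.6 and 63.1 and Blnk -14.3 kb 49.6, 54.8, 38.3, 15.0 and 39.2, so that at both the 48 hpi value was within counting error of that at 0 hpi.

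C/EBPα was called at *Blnk* from 10 min on. At Blnk +0.3 kb, across the TSS, C/EBPα reads were 7.89, 32.1, 66.9, 58.3, 47.6, 26.8, 27.7 and 32.7, bound in every library after 0 hpi, 8.48 times (95% interval 3.94 to 21.7) the 0 hpi value at 30 min and still 4.14 times (95% interval 1.75 to 11.3) at 48 hpi, a gained site. In the introns, Blnk +23.9 kb had 3.38, 9.23, 40.8, 37.4, 18.9, 13.4, 3.95 and 2.51, highest at 30 min, and Blnk +58.1 kb had 7.89, 6.02, 15.4, 37.9, 64.7, 18.4, 6.59 and 7.54, highest at 3 hpi. Neither was bound at 12 hpi or later, nor by PU.1 at any time.

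**Figure D4:**
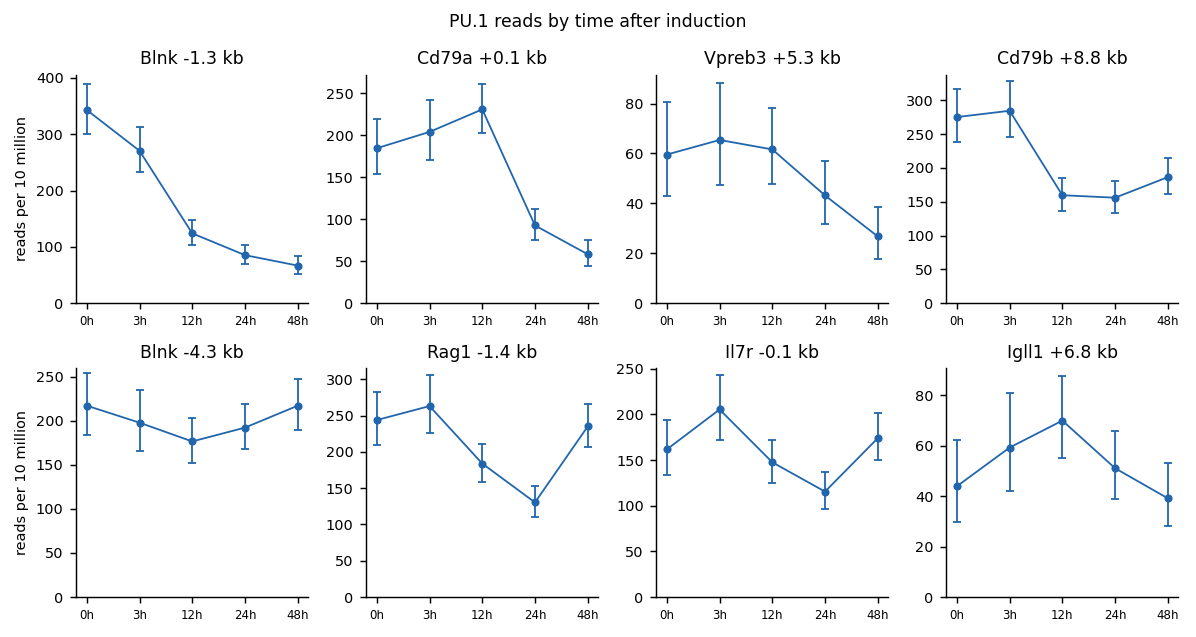
PU.1 reads per 10000000 (vertical axes, each from 0 and scaled to its own panel) at 8 sites by time after induction (horizontal axis, evenly spaced time points), with exact 95% Poisson intervals. Blnk -1.3 kb and Cd79a +0.1 kb ended at 66.9 and 58.3 from 343 and 184, while Blnk -4.3 kb, Rag1 -1.4 kb and Il7r -0.1 kb had intervals at 48 hpi that overlapped those of 0 hpi.

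RAG1 and RAG2 together form the enzyme that cuts DNA at the recombination signals of antibody genes, and their genes stand tail to tail. PU.1 was highest at Rag1 -1.4 kb (chr2:101491001-101491400, intergenic, upstream of *Rag1*), in 244, 263, 184, 130.4 and 235 reads. The value at 24 hpi was 0.535 times (95% interval 0.426 to 0.670) that of 0 hpi, and the value at 48 hpi was 1.80 times (95% interval 1.46 to 2.23) that of 24 hpi and 0.964 times (95% interval 0.790 to 1.18) that of 0 hpi. The lower value rests on the single library of 24 hpi, and whether that library or the locus departs was not tested. C/EBPα was not called at this site, where reads were 12.4, 4.82, 4.61, 8.19, 5.39, 5.02, 2.64 and 7.54.

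Inside the coding exon of *Rag1*, Rag1 +5.8 kb had 72.3, 63.9, 72.8, 60.8 and 82.2 PU.1 reads, a range within which all 5 intervals overlapped. Rag2 -4.4 kb (chr2:101459601-101460600), in an intron of the overlapping gene *B230118H07Rik*, had 34.0, 48.7, 53.2, 31.7 and 64.0, 1.88 times (95% interval 1.16 to 3.14) those of 0 hpi at 48 hpi and thereby the highest ratio of the 24 sites. C/EBPα had its own summit 690 bp from that of PU.1, in 6.77, 6.02, 16.1, 19.96, 71.0, 13.4, 2.64 and 10.1 reads, with 10.5 times (95% interval 4.61 to 29.5) the 0 hpi value at 3 hpi. C/EBPβ at its summit had 14.01, 41.1, 17.2, 19.2 and 19.7 reads and was bound at 3 hpi alone. The 300 bp around the C/EBPα summit held 3 matches to the C/EBP letters, more than at any other C/EBPα site of the 9 genes, and 1 of them stands in capitals in the printed stretch. Rag2 -10 kb, in an intron of the same overlapping gene, was bound by PU.1 throughout, with 45.4, 53.2, 51.3, 30.0 and 27.7 reads.

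The IL-7 receptor α chain passes on the growth and survival signal that pre-B cells depend on. Its promoter (Il7r -0.1 kb, chr15:9459401-9460000) carried 162, 205, 147, 115 and 174 PU.1 reads, 1.08 times (95% interval 0.847 to 1.37) those of 0 hpi at 48 hpi. As at Rag1 -1.4 kb, the lowest value was that of 24 hpi, 0.714 times (95% interval 0.551 to 0.926) the 0 hpi value. C/EBPα was not called at the promoter, with 7.89, 5.62, 6.92, 9.72, 8.99, 6.70, 9.23 and 5.03 reads. In contrast, Il7r +37.5 kb (chr15:9421601-9422600, intergenic, beyond the 3′ end of the gene) held the highest C/EBPα value at any of the 9 genes. The 157 of Igll1 +6.8 kb at 3 hpi lay within counting error of it and came from another sequencer. The C/EBPα reads were 10.1, 48.96, 159, 147, 109, 30.1, 11.9 and 7.54, with 15.7 times (95% interval 8.10 to 34.8) the 0 hpi value at 30 min and 21.1 times (95% interval 9.54 to 58.2) the 48 hpi value. C/EBPα was bound there from 10 min to 12 hpi. The intervals of its reads at 12, 24 and 48 hpi overlapped that of 0 hpi, although the site was still called bound at 12 hpi. C/EBPβ at the same site had 18.7, 47.9, 17.2, 6.40 and 5.91 reads and was bound at 3 hpi alone, and PU.1 had 18.4, 21.3, 16.8, 10.6 and 7.64, called at 3 and 12 hpi. At Il7r +38.5 kb, C/EBPα reads were 3.38, 6.02, 28.5, 31.7, 48.5, 0, 0 and 3.77, bound at 30 and 60 min and 3 hpi.

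The gained PU.1 site of the 9 genes, Il7r +21.9 kb, lay in a coding exon of *Il7r* and had 9.93, 12.2, 14.9, 7.93 and 24.8 reads, 2.50 times (95% interval 1.06 to 6.83) those of 0 hpi at 48 hpi. C/EBPβ was gained at Il7r +1.5 kb, in an intron, with 2.33, 10.3, 3.44, 12.8 and 37.4 reads. At the same site C/EBPα had 5.64, 4.01, 10.8, 9.21, 12.6, 6.70, 10.5 and 10.1 and was not called.

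C/EBPβ bound 16 sites in all, few enough that a single site weighs in each share. Of the 7 sites bound at 3 hpi, 6 were also bound by C/EBPα at 3 hpi (85.7%), beside 97.0% in the genome, and of the 10 bound at 48 hpi, 3 were also bound by C/EBPα at 48 hpi (30%), beside 43.4%. The 3 and 48 hpi sites of C/EBPβ shared 1 site, which is 14.3% of the former, beside 67.8% in the genome, and 10% of the latter, beside 26.9%. C/EBPβ gain was called at 4 of the 10 sites bound at 0 or 48 hpi, beside 86.6% of such sites in the genome. With reads counted around the summit of C/EBPβ itself, gain was called at 8 of the 10, so the count depended on where the reads were taken, and the genome share was not counted in that way. A further 6 of the 16 sites were bound between 0 and 48 hpi only, beside 13.4% of all C/EBPβ sites. The C/EBPβ library of 12 hpi held the fewest reads of the series.

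Reads at the promoters, taken within 500 bp of each TSS, set the 9 genes in order. At 0 hpi the *Cd79a* promoter had 184 and the *Il7r* promoter 172 PU.1 reads per 10000000, followed by *Cd79b* with 61.0, *Vpreb1* with 36.9, *Blnk* with 34.0 and *Igll1* with 29.8, and then *Rag2*, *Rag1* and *Vpreb3* with 12.8, 11.3 and 2.84. Neighbours in this order had overlapping intervals, with the exception of *Il7r* and *Cd79b*. Within 1000 bp of the TSS *Vpreb1* came after *Blnk* and *Igll1*, with 38.3 beside 46.8 and 45.4. A bound PU.1 site lay within 500 bp of the TSS at 4 of 9 genes at 0 hpi (*Cd79a*, *Cd79b*, *Igll1* and *Il7r*), beside 12.1% of all promoters. By 48 hpi PU.1 reads at the promoters of *Cd79a*, *Cd79b* and *Igll1* were 61.2, 30.6 and 9.55, and at that of *Il7r* 180. Within 1000 bp the 48 hpi values of *Cd79b* and *Igll1* were 54.5 and 27.7, beside 83.7 and 45.4 at 0 hpi.

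A C/EBPα site lay at the promoters of 5 of the 9 genes at some time (*Cd79a*, *Cd79b*, *Vpreb1*, *Igll1* and *Blnk*), beside 13.8% of all promoters. The times differed among the 5. At *Blnk* the C/EBPα promoter reads were 16.9, 41.7, 81.5, 69.1, 69.2, 41.9, 34.3 and 45.2, highest at 30 min, and at *Igll1* they were 27.1, 40.1, 87.7, 80.9, 95.2, 73.7, 17.1 and 15.1, high from 30 min to 12 hpi. At *Cd79a*, *Cd79b* and *Vpreb1*, the 12 hpi value was the highest, with 63.6, 40.2 and 58.6. Among the promoters of all genes these values stood at percentiles 98.9, 95.4 and 98.7. By this rank *Cd79b* stood higher at 3 hpi (96.4) and *Vpreb1* at 48 hpi (99.2), while *Cd79a* was highest at 12 hpi. *Rag1*, *Rag2*, *Vpreb3* and *Il7r* stayed at or below 15.8 at all times.

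**Figure D5:**
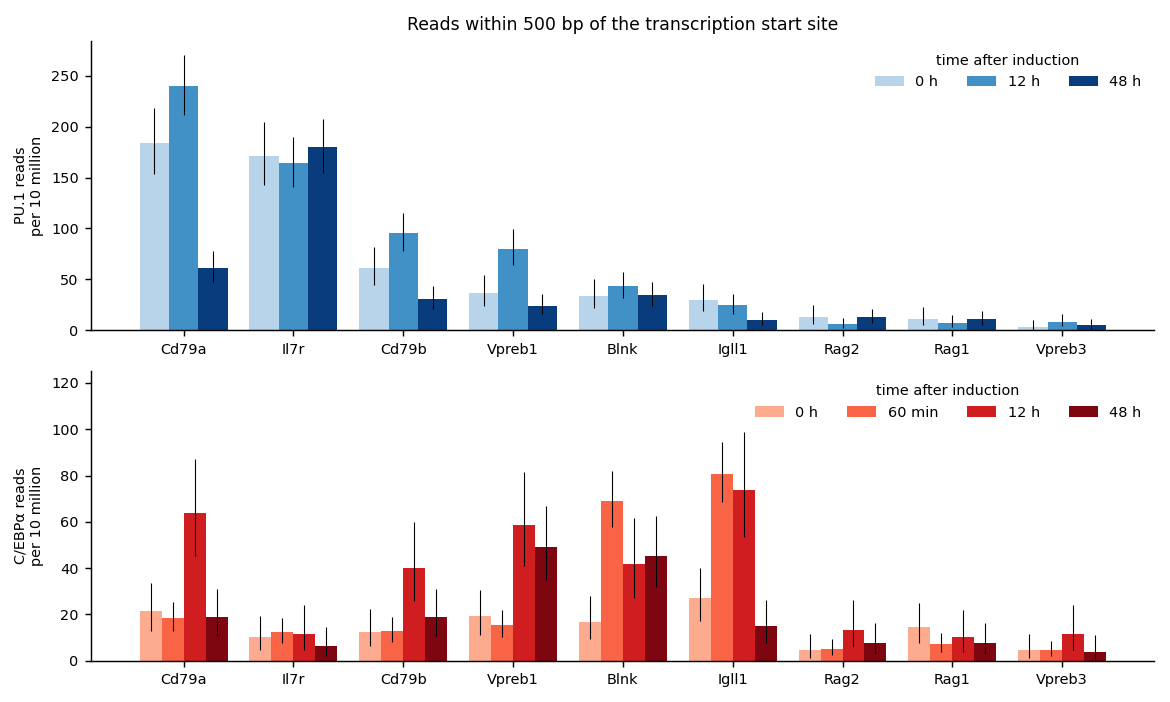
Bars give PU.1 reads (upper panel, at 0, 12 and 48 hpi) and C/EBPα reads (lower panel, at 0 hpi, 60 min, 12 and 48 hpi) per 10000000 within 500 bp of the TSS of each of the 9 genes, with exact 95% Poisson intervals. PU.1 stands highest at Cd79a and Il7r and is lower at 48 hpi at Cd79a, while C/EBPα is high at Blnk and Igll1 at 60 min and at Cd79a, Cd79b and Vpreb1 at 12 hpi.

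The promoters whose reads followed those of a member most closely were looked for among 7316 promoters with a bound site, by the Pearson correlation over 18 libraries of log2 (reads per 10000000 + 1), centred within each factor, as a description. For *Cd79a* they were those of *Cenpv* and *Rasgrp2* (both 0.893) and *Adrbk1* (0.856), for *Cd79b* *Mnd1* (0.892), *Tnfrsf13c* and *Sbds* (both 0.879), and for *Vpreb1* *Sesn2* (0.966), *Atxn10* (0.937) and *Srsf3* (0.929). For *Igll1* they were *Mmp11* (0.837), *Ralgapa1* (0.816) and *Selplg* (0.806), for *Blnk* *Pld4* (0.933), *Pik3cg* and *Rcbtb2* (both 0.926), and for *Il7r* *Tnfrsf19* (0.740), *Angptl4* (0.737) and *Lca5* (0.695). *Mmp11* itself lies in the *Vpreb3* window, near the site Vpreb3 -4.7 kb. The points share their libraries and depth. *Vpreb3*, *Rag1* and *Rag2* had no bound site at the promoter in any library and were not compared.

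The letters searched were counted in the 300 bp around each summit. TTGCNNAA was found at 8 of the 28 C/EBPα sites (28.6%), beside 37.7% of all C/EBPα sites and 10.3% of all promoters of that length. TCCCNNGGG, the letters of EBF1, a B cell factor, was found at 5 of the 28 (17.9%), beside 11.04% and 7.15%. CAGGTG was found at 6 (21.4%, beside 18.6% and 19.9%) and TGTGGTT at 3 (10.7%, beside 13.0% and 5.15%), while GAGGAAGT was found at 0, beside 7.44% and 3.12%. Among the 43 PU.1 sites, GAGGAAGT was found at 10 (23.3%, beside 26.1% of all PU.1 sites and 3.12% of promoters) and its core GAGGAA at 30 (69.8%, beside 61.5% and 28.1%). The differences from the shares of all sites rest on few sites and were not tested, and a match is a description of the letters, not of binding.

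Other genes of the same pathways were examined in the same windows. For 14 further genes of pre-B cell receptor signalling, among them *Sykb* (the annotation's name for *Syk*) and *Btk*, PU.1 was bound at 0 hpi in all 14 windows and C/EBPα at some time in 13 (beside 57.8% and 55.5% of all genes), with 102 C/EBPα sites of which 70 were passing (68.6%, beside 74.6% of all sites) and 28 were bound at 48 hpi (27.5%, beside 22.6%). The 89 PU.1 sites bound there at 0 hpi had a median log2 change to 48 hpi of -0.34, close to the -0.31 of the 9 genes and the -0.40 of all sites bound at 0 hpi. PU.1 was gained at 19 sites and lost at 8. Over the genome, 26.3% of the PU.1 sites bound at 0 or 48 hpi were gained and 12.2% lost. These shares were not counted for this list or those below, so their counts cannot be set against the genome. For 11 further genes of recombination and end joining, such as *Dntt* and *Xrcc4*, 27 of 33 C/EBPα sites were passing (81.8%, beside 74.6%). The 29 PU.1 sites bound at 0 hpi had a median of -0.13. PU.1 was gained at 14 sites, 10 of them in the 356-kb window of *Xrcc4* alone, and lost at 7. The 5 further genes of IL-7 signalling (*Il2rg*, *Jak1*, *Jak3*, *Stat5a* and *Stat5b*) had 15 C/EBPα sites. All 15 were passing (beside 74.6% of all sites) and 0 were bound at 48 hpi (beside 22.6%). These sites lay in the windows of *Jak1* (8), *Stat5b* (7) and *Stat5a* (3), with some shared between windows, and *Il2rg* and *Jak3* had 0. The 5 genes had 20 PU.1 sites bound at 0 hpi, with a median of 0.22, beside -0.40 of all such sites. Of these 20, 6 had at most 0.5 times the reads at 48 hpi (beside 28.4% of all sites bound at 0 hpi). Another 3 had at least 2 times the reads (beside 7.16%). PU.1 was lost at 5 sites and gained at 3.

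The macrophage genes *Itgam*, *Tyrobp*, *Lyz2*, *Ctsd* and *Fcgr3* had other counts in the same windows. Their 5 windows held 30 C/EBPα sites. Of these, 17 were bound at 48 hpi (56.7%, beside 22.6% of all C/EBPα sites) and 11 were passing (36.7%, beside 74.6%). The 9 genes had 4 of 28 bound at 48 hpi (14.3%) and 22 passing (78.6%). C/EBPα was gained at 15 macrophage sites, and at 3 of the 6 sites bound at 0 or 48 hpi at the 9 genes, beside 66.8% over the genome. PU.1 was gained at 15 macrophage sites and lost at 0. Of the 31 PU.1 sites bound at 0 or 48 hpi at the 9 genes, 1 was gained and 2 were lost, beside 26.3% and 12.2% over the genome. Shares of gain and loss were not counted for the macrophage windows, so those counts cannot be set against the other shares. The 14 PU.1 sites bound at 0 hpi at the macrophage genes had a median log2 change of 0.42, beside -0.31 at the 9 genes and -0.40 over the genome. These genes were chosen as known macrophage markers with earlier results of these data in view, and no test of the difference was made.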

How the data were processed

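The data were 18 ChIP-seq libraries of C10 cells (8 of C/EBPα, 5 of C/EBPβ, 5 of PU.1; antibodies sc-61, sc-150 and sc-352). According to the labels and the study's methods, the authors aligned reads to mm9 (with ELAND or Bowtie per the methods, of which the submitters' processing notes name Bowtie, and which library had which aligner is not given in the sources used here) and removed identical and multiply aligned reads. The deposited files gave the chromosome, start, end and strand of every aligned read, in no normalized unit and with no control library. The lines gave reads per region here. HOMER, which the authors used for peaks, was not run, and sites were called anew.

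The 5′ end of each read was moved 75 bp inward, 1 read was kept per position and strand (2.51% of the C/EBPα library at 3 hpi and at most 0.188% of any other were removed), and reads were counted in 200-bp bins. Reads on unplaced contigs and 1 line without a position were left out. The genome was taken as 2000000000 bp. A gene window was the span with 20 kb added, and the whole genome was called in the same way for the background shares (76978 sites in all). Intervals were exact Poisson intervals, or exact conditional intervals for a ratio, both at 95%, computed with Python 3.11.15, NumPy 2.4.6, pandas 2.3.3 and SciPy 1.17.1. Calling and intervals were run on simulated data with sites planted on an even Poisson background. Such data cannot show how often the uneven background of real libraries is called bound. Named were all 9 genes, for each the site with the most PU.1 reads at 0 hpi, all gained and lost sites, and the 3 most alike promoters. Other sites were named after their values were seen. The members and lists were chosen with earlier results of these data known. PU.1 at 10, 30 and 60 min, histone marks, P300, Ebf1, MNase and expression were not analysed here. From the list of pre-B cell receptor signalling genes, 1 gene is not reported here.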

Additional observations from a re-analysis of the deposited data

How the results depend on the processing

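The processing alternatives were run on counts of sites, on the changes at the leading sites and on promoter reads. Of the 72 counts of bound sites under alternatives, 58 stayed within 1.5 times the reported count, as did 63 of the 77 counts of gained, lost and passing sites. Of 72 promoter values, 61 stayed within the interval of the reported one. Within 1000 bp of the TSS, PU.1 reads at the *Vpreb3* promoter were 8.51 at 0 hpi and 14.3 at 48 hpi, where 2.84 and 4.78 were found within 500 bp, and at *Blnk* at 48 hpi 54.5 where 34.4 were found. The 22 passing C/EBPα sites stayed within that range under each alternative tried. With a Poisson threshold of 1e-09, C/EBPα bound 1 site at 0 hpi and lost 0, and PU.1 lost 1. With 1e-05, C/EBPα bound 6 sites at 0 hpi and 8 at 48 hpi and gained 5, and C/EBPβ bound 3 at 0 hpi and lost 3. With libraries thinned to the smallest of the factor, C/EBPα bound 1 site at 0 hpi and lost 0, C/EBPβ bound 8 sites at some time and 6 at 48 hpi, and PU.1 lost 1. With bins moved by 100 bp, C/EBPβ bound 1 site at 0 hpi, and PU.1 gained 0 and lost 1. With each 5′ end moved by 0.5 of the library's own fragment length, C/EBPβ bound 1 site at 0 hpi and lost 1. A change of at least 1.5 times gave 8 gained C/EBPβ sites, and one of at least 3 times gave 1 gained C/EBPα site, 0 gained PU.1 sites and 1 lost PU.1 site. With reads counted around each factor's own summit, chosen after seeing the data, C/EBPβ gained 8 sites. Windows of 50 kb either side held 50 C/EBPα sites, 82 PU.1 sites (41 at 0 hpi and 47 at 48 hpi) and 2 C/EBPβ sites at 0 hpi. Causes of these differences were not tested.

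Scaling to reads away from bound sites moved the median log2 change of all sites by 0.03 for PU.1, 0.06 for C/EBPα and 0.13 for C/EBPβ, and no leading site whose interval left out 1 changed direction under any alternative. At Blnk -1.3 kb the log2 change of C/EBPα was 1.26 at the highest bin of all libraries and -0.72 around the factor's own summit. The PU.1 changes at the 7 leading sites stayed within their intervals under each alternative. No paired analysis was possible because each factor and time point had 1 library and the labels carry no replicate numbers, and for the same reason no replicate could be left out. The C/EBPβ libraries held 2903580 to 5844202 reads, fewer than any library of the other factors.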

Other observations

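Further values of sites and promoters of the 9 genes are given here. At Cd79b -4.4 kb, in a UTR of *Scn4a* (a muscle sodium channel gene), PU.1 reads were 68.1, 80.6, 128, 84.6 and 63.1 around its own summit, while C/EBPβ reads around the C/EBPβ summit were 14.01, 12.0, 27.6, 44.8 and 53.2 and 3.80 times (95% interval 1.54 to 11.2) the 0 hpi value at 48 hpi. Around the highest bin of all libraries the C/EBPβ ratio was 1.13 times (95% interval 0.342 to 3.93) and no gain was called. The C/EBPβ reads of the *Blnk* promoter were 28.0, 39.4, 34.4, 54.4 and 69.0 within 500 bp of the TSS, highest at 48 hpi, where C/EBPα had 16.9, 41.7, 81.5, 69.1, 69.2, 41.9, 34.3 and 45.2. Among the promoters of all genes its C/EBPβ reads stood at percentiles 98.2, 99.4, 98.7, 99.0 and 98.6, highest at 3 hpi. Cd79a -19.5 kb was bound in the C/EBPα library of 3 hpi alone, with 2.26, 2.81, 5.38, 6.14, 35.9, 6.70, 6.59 and 7.54 reads. Blnk +21.5 kb had 15.6, 13.7, 28.9, 27.3 and 3.82 PU.1 reads and was called at 12 and 24 hpi only, and Igll1 -3.0 kb had 15.6, 36.5, 35.5, 15.9 and 10.5, called at 3 and 12 hpi only. These are values of single libraries, and their spread between replicates is unknown.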
